A study of Mus musculus with 12 samples.

Results

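The wild-type (wt) libraries labelled PI at 9.5 days post coitum (dpc) were compared with wt libraries at 9.0 dpc, 2 libraries against 2, and each gene was then placed relative to the 2 wt libraries at 9.5 dpc without PI. The members were taken by their labels, and are 4 of the 11 libraries of the series for which counts were used here, all poly(A) RNA-seq of mouse samples whose source is labelled embryo. The growth protocol given for the same samples names medium for ES cells and embryoid bodies (EB), and the source label is followed here. All 3 groups are labelled wt and hold 2 libraries each, 1 of lot 1 and 1 of lot 2: the PI group at 9.5 dpc, the later stage at 9.5 dpc and the earlier stage at 9.0 dpc. The labels name no strain, no other allele and no agent, and leave "PI", "mb" and "lot" unexplained. Nothing in them tells whether both libraries of a group stem from different embryos. The p-values of the main fit measure only the spread between libraries that is left once a shared lot difference is removed. Part of that spread may be technical. The wt PI libraries differ from wt 9.0 dpc in both age and the PI label, and within that comparison their effects cannot be told apart.

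In the embryonic neural tube, dividing neuroepithelial cells give rise to the first neurons through proneural bHLH transcription factors such as the Neurog and Neurod families. Notch ligands on the new neurons keep neighbouring cells as progenitors. The isthmic organizer at the border of midbrain and hindbrain patterns the tissue on both sides through FGF and Wnt signals, with En1, En2 and Pax5 among the genes it maintains. The series concerns Skp1a, which links substrate receptors to SCF ubiquitin ligases, and PRC2, the Polycomb complex that keeps developmental genes silent.

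Total counts were 3632898 and 11190592 in the wt PI libraries, 3392251 and 9217568 in the wt 9.5 dpc libraries, and 4007663 and 11607085 in the wt 9.0 dpc libraries, so the lot 2 library was the deeper in each group. Levels are given as CPM, counts scaled to a library of 1000000 counts with TMM factors. Log2 CPM correlated between the lots across genes with r = 0.972 in wt PI, 0.964 in wt 9.5 dpc and 0.969 in wt 9.0 dpc. Genes of the mitochondrial genome took 2.75% and 2.83% of the counts in wt PI, 4.01% and 3.63% in wt 9.5 dpc, and 2.44% and 2.5% in wt 9.0 dpc. En1, En2, Pax5 and Otx2, genes of the midbrain and its borders, had counts in all 6 libraries. None of the 39 Hox genes in the table passed the filter on low counts, and the highest reached 1.88 CPM in any wt library. The tissue label is embryo, and these genes are given here as measured, with no name for the region.

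Between wt PI and wt 9.0 dpc, 3735 of 13126 genes tested (28.5%) passed the edgeR quasi-likelihood test with lot as a block at an adjusted p under 0.05. Of these, 2012 (15.3% of genes tested) were higher in wt PI and 1723 (13.1%) were lower. The changes were mostly small. The median size of a called change was 0.59 on the log2 scale, 1403 called genes moved by less than 0.5, and 842 moved by at least 1. The libraries of the 2 groups did not overlap in 3621 of the called genes (27.6% of genes tested were both called and without overlap). The share without overlap among all genes tested is not given here. A small spread favours both a call and no overlap, so this count adds no support to the calls. The count rests on the small residual spread of this fit, with a biological coefficient of variation of 7.19%. Without the lot block that coefficient was 19.6%, and 2046 genes were called. The DESeq2 Wald test called 1089. A fit of all 11 libraries by group without the block, where the coefficient was 35.3%, called only Vgll3 and Wfdc1. Leaving out wt 9.0 dpc replicate 2, wt PI replicate 2 or wt 9.0 dpc replicate 1 left 1877, 2158 and 2257 calls. With library totals in place of TMM, 76.67% of calls were higher in wt PI, against 53.87% in the main fit, and the median log2 fold change over all genes was 0.19 in place of 0.04, so small changes below are relative to the TMM scale.

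The 2 tests of wt PI, against wt 9.0 dpc and against wt 9.5 dpc, were then read together. Against wt 9.5 dpc, 5111 genes (38.9%) were called, 2758 (21%) of them higher in wt PI and 2353 (17.9%) lower. Between wt 9.5 dpc and wt 9.0 dpc without PI, 5469 genes (41.7%) were called, and 3454 without wt 9.0 dpc replicate 2. The DESeq2 Wald test called 2044 genes between wt PI and wt 9.5 dpc and 2252 between the stages, and the fit of all 11 libraries called 13 and 302. A gene was placed between the stages where wt PI was called against both, in opposite directions, and outside both where it was called against both in the same direction. By this rule 375 genes (2.86%) were between and rising with stage, 175 (1.33%) between and falling with stage, 828 (6.31%) above both stages and 640 (4.88%) below both. Together 550 genes (4.19%) lay between and 1468 (11.2%) outside. Both tests use the same wt PI libraries, so a deviation of those libraries moves both differences the same way. The split depended on scaling and on single libraries. With library totals 1458 genes were above both, 412 below both, 498 between and rising and 87 between and falling. The same 4 counts were 472, 484, 144 and 31 without wt PI replicate 2, 436, 473, 259 and 71 without wt 9.0 dpc replicate 1, and 348, 413, 263 and 62 without wt 9.0 dpc replicate 2. The count between and falling was 115 without wt PI replicate 1 and 92 without wt 9.5 dpc replicate 1. Without the lot block 297 genes lay between and 693 outside. Without wt PI replicate 2 the counts were 175 between and 956 outside, without wt 9.0 dpc replicate 1 they were 330 and 909, and without wt 9.0 dpc replicate 2 they were 325 and 761.

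**Figure D1:**
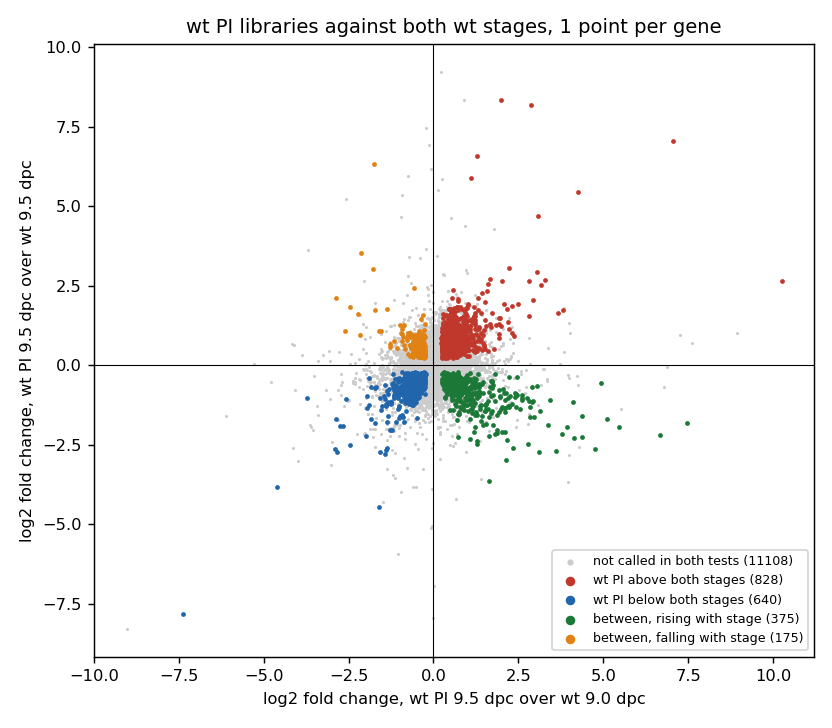
Each point is 1 of the 13126 genes tested, with the log2 fold change of wt PI 9.5 dpc over wt 9.0 dpc on the x axis and of wt PI 9.5 dpc over wt 9.5 dpc on the y axis. Genes called in both tests are coloured by where wt PI lies, with 828 above both stages, 640 below both, 375 between and rising with stage, and 175 between and falling with stage.

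On the first component of all genes tested the wt PI libraries lay between the stages, and on the second, within each lot, outside both. On the first principal component, which held 43.1% of the variance, the scores were 6.0 and 4.66 for wt PI, -55.7 and -38.4 for wt 9.5 dpc, and 47.3 and 36.2 for wt 9.0 dpc. On the second, with 27.03% of the variance, lot 1 scored 12.8 for wt PI, -35.7 for wt 9.5 dpc and -41.5 for wt 9.0 dpc, and lot 2 scored 40.7 for wt PI, 15.5 for wt 9.5 dpc and 8.3 for wt 9.0 dpc. The root mean square distance in log2 CPM between libraries of the same lot was 0.756 and 0.582 for wt PI to wt 9.0 dpc and 0.806 and 0.606 for wt PI to wt 9.5 dpc. It was 0.931 and 0.729 for wt 9.5 dpc to wt 9.0 dpc. The 2 libraries of 1 group lay 0.549 apart in wt PI, 0.622 in wt 9.5 dpc and 0.596 in wt 9.0 dpc, so in lot 2 the distance of wt PI to each stage was about that between lots.

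Genes of new neurons lay between the stages as a group. List counts from here on stand against shares over all genes tested of 15.3% higher and 13.1% lower than in wt 9.0 dpc. For the classes these shares were 4.19% between the stages and 11.2% outside both. Of 27 tested genes for neuronal structure (28 listed), 22 were higher in wt PI than in wt 9.0 dpc, none was lower, and the median log2 fold change was 1.26, against 0.04 over all genes. Of these, 19 were between and rising with stage, none was outside both, and with 1 library left out 13 to 17 were between. Of 18 tested proneural and neuron-commitment factors (25 listed), 16 were higher than in wt 9.0 dpc, none was lower, and the median was 2.31. Of these factors 13 were between and rising, and without wt PI replicate 2 the count between was 8. At an unadjusted p under 0.05 no member of either list was lower, and none was with the DESeq2 Wald test, which called 19 neuronal structure genes and 11 of the factors higher. The plot of classes by list shows these 2 lists with the highest shares between the stages.

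**Figure D2:**
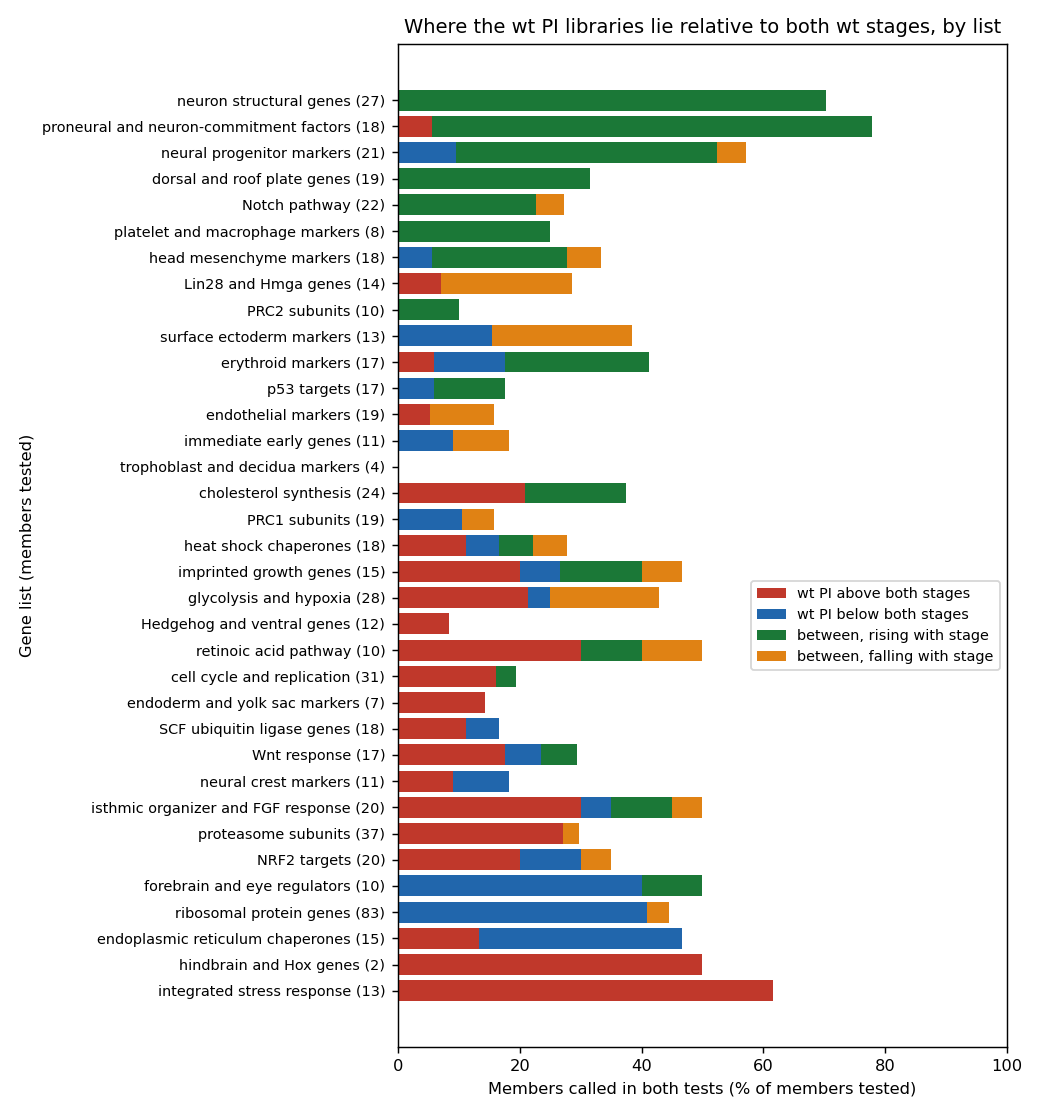
For each gene list, the bars give the share of tested members (number in parentheses) that were called against both wt stages, split by whether wt PI lay above both, below both, or between while rising or falling with stage. Neuron structural genes (19 of 27) and proneural factors (13 of 18) lay between and rising, while the integrated stress response list (8 of 13) lay above both and 34 of 83 ribosomal protein genes lay below both.

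Neurod4, a bHLH factor of neuronal differentiation (chromosome 10, 130268152 to 130280240, GRCm38), had 13.5 and 12.9 in wt PI, 29.6 and 29.2 in wt 9.5 dpc and 0.268 and 0.911 CPM in wt 9.0 dpc. Both wt PI libraries stood well above both wt 9.0 dpc libraries and at less than those of wt 9.5 dpc (log2 fold change 4.10 ± 0.29 over wt 9.0 dpc, adjusted p = 2.23e-08, and -1.17 ± 0.14 over wt 9.5 dpc, adjusted p = 4.62e-06). Nhlh2, another bHLH factor of young neurons (chromosome 3, 102010076 to 102015492), had 7.54 and 7.62 in wt PI, 59.5 and 45.8 in wt 9.5 dpc and 0 and 0.82 CPM in wt 9.0 dpc. It lay nearer to wt 9.0 dpc in CPM. Neurod1, of the Neurod family, had 4.58 and 4.57 in wt PI, 27.5 and 19.5 in wt 9.5 dpc and 0 and 0.274 CPM in wt 9.0 dpc. Against the 3 counts of Neurod1 over both wt 9.0 dpc libraries, wt PI was 22.4-fold higher, with a 95% counting interval of 7.36 to 111. Insm1, a zinc finger factor of neuron and endocrine precursors, had 6.46 and 5.84 in wt PI, 16.6 and 11.4 in wt 9.5 dpc and 0.268 and 0.638 CPM in wt 9.0 dpc.

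Onecut2, a homeobox factor of early neurons, had 55.5 and 56.6 in wt PI, 172 and 176 in wt 9.5 dpc and 7.25 and 7.11 CPM in wt 9.0 dpc. The lots of each group were close together and the groups well apart (log2 fold change 2.97 ± 0.12 over wt 9.0 dpc and -1.64 ± 0.09 over wt 9.5 dpc). Neurog2 was the 1 member of this list above both stages, with 4.31 and 4.83 in wt PI, 1.18 and 1.99 in wt 9.5 dpc and 1.61 and 1.64 CPM in wt 9.0 dpc. It was picked out after its values were seen. Ebf1, which helps neurons mature and leave the ventricular layer, had 21.5 and 17.2 in wt PI, 48.0 and 37.0 in wt 9.5 dpc and 23.4 and 19.5 CPM in wt 9.0 dpc. It differed from wt 9.5 dpc (log2 fold change -1.12 ± 0.11, adjusted p = 6.72e-07) and was not called against wt 9.0 dpc (-0.16 ± 0.12, adjusted p = 0.366).

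Dcx, a microtubule protein of migrating neurons, had 8.89 and 9.40 in wt PI, 30.2 and 36.3 in wt 9.5 dpc and 0.537 and 1.00 CPM in wt 9.0 dpc. The groups did not overlap (log2 fold change 3.37 ± 0.28 over wt 9.0 dpc, adjusted p = 1.79e-07). Stmn2, a regulator of microtubules in growing axons (chromosome 3, 8509360 to 8561606), was already detected well at the earlier stage, with 73.0 and 73.0 in wt PI, 219.8 and 264 in wt 9.5 dpc and 42.4 and 47.1 CPM in wt 9.0 dpc. Tubb3, the neuronal beta tubulin, had 62.2 and 60.1 in wt PI, 75.2 and 80.5 in wt 9.5 dpc and 9.40 and 11.8 CPM in wt 9.0 dpc. It was close to the later stage. Its difference from wt 9.5 dpc (-0.36 ± 0.10 on the log2 scale, adjusted p = 0.00664) was not called without wt PI replicate 2 (-0.24, adjusted p = 0.27) or without wt 9.5 dpc replicate 2 (-0.33, adjusted p = 0.091). Dpysl3, a growth cone protein, had 99.4 and 101 in wt PI, 99.5 and 108 in wt 9.5 dpc and 29.0 and 30.9 CPM in wt 9.0 dpc. It was level with the later stage within the spread of its libraries.

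**Figure D3:**
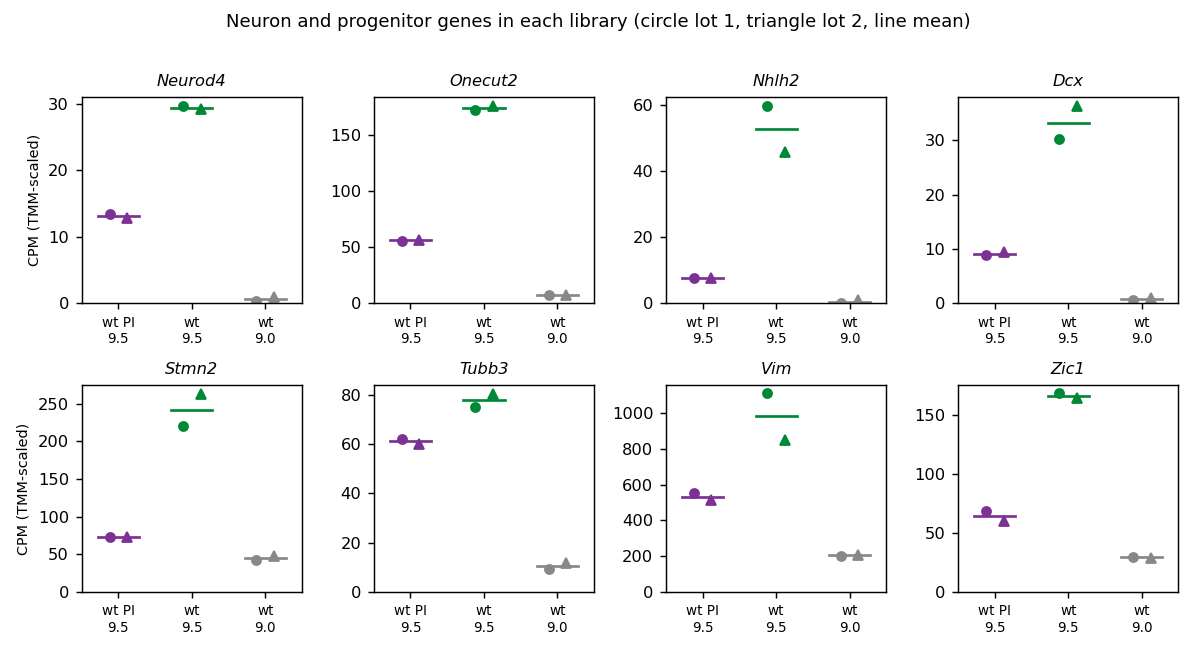
CPM (TMM-scaled, linear axis from 0) of 8 neuron and progenitor genes in each library, with wt PI 9.5 dpc left, wt 9.5 dpc in the middle and wt 9.0 dpc right, circles for lot 1, triangles for lot 2 and a line at the mean. In all 8 genes both wt PI libraries sit above both wt 9.0 dpc libraries and below both wt 9.5 dpc libraries. These 8 are a selection, so their shared order is no result about the lists. Other members differed, as Sox9 was lowest in wt PI and Ebf1 was not called against wt 9.0 dpc.

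Several genes of neurons and their progenitors had large differences from wt 9.0 dpc. Sst, the neuropeptide somatostatin (chromosome 16, 23889573 to 23890958), had 14.8 and 15.0 in wt PI, 41.5 and 58.6 in wt 9.5 dpc and 0 and 0.0912 CPM in wt 9.0 dpc. With 232 counts in wt PI against 1 count in wt 9.0 dpc, it was 220-fold higher, with a 95% counting interval of 39.0 to 8712. It was lower than in wt 9.5 dpc (-1.82 ± 0.13 on the log2 scale). Ppp1r17, a phosphatase inhibitor gene, had 10.2 and 11.2 in wt PI, 12.7 and 17.3 in wt 9.5 dpc and 0.805 and 0.182 CPM in wt 9.0 dpc. Its wt PI level came near that of the later stage. The difference of Ppp1r17 from wt 9.5 dpc (-0.55 ± 0.17) was lost without wt PI replicate 2 (adjusted p = 0.39) or wt 9.5 dpc replicate 2 (adjusted p = 0.64). Dbx1, a homeobox factor of progenitors that give rise to interneurons, had 8.89 and 7.28 in wt PI, 61.6 and 41.8 in wt 9.5 dpc and 1.07 and 1.64 CPM in wt 9.0 dpc. It was called against both stages. Slc17a6, the vesicular glutamate transporter of excitatory neurons, had 2.15 and 1.02 in wt PI, 10.4 and 8.46 in wt 9.5 dpc and 0.268 and 0.0912 CPM in wt 9.0 dpc. It had only 20 counts in wt PI and 2 in wt 9.0 dpc (9.47-fold, 95% counting interval 2.3 to 83.5). Its call against wt 9.0 dpc was lost without wt 9.0 dpc replicate 2 (adjusted p = 0.11).

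Progenitor genes were split. Of 21 tested neural progenitor markers, 11 were higher in wt PI than in wt 9.0 dpc and 3 were lower, with 9 between and rising, 1 between and falling and 2 below both. With library totals 17 were higher, without wt PI replicate 2 or wt 9.0 dpc replicate 1 the count between the stages was 6, and without wt PI replicate 2 there was 1 lower. Vim, the intermediate filament of neuroepithelial cells (chromosome 2, 13573927 to 13582826), had 553 and 514 in wt PI, 1112 and 853 in wt 9.5 dpc and 201 and 207 CPM in wt 9.0 dpc (log2 fold changes 1.38 ± 0.10 and -0.87 ± 0.10). Fabp7, a fatty acid binding protein of radial glia, had 165 and 172 in wt PI, 897 and 811 in wt 9.5 dpc and 85.9 and 76.2 CPM in wt 9.0 dpc. Its distance to the later stage was the larger on the log2 scale (-2.33 ± 0.09 against 1.07 ± 0.10). Pou3f3, a POU factor of neural progenitors, had 56.8 and 56.4 in wt PI, 136 and 98.6 in wt 9.5 dpc and 12.9 and 15.0 CPM in wt 9.0 dpc. Sox9, a factor of progenitors and neural crest, had 28.3 and 25.8 in wt PI, 57.8 and 36.8 in wt 9.5 dpc and 85.4 and 92.0 CPM in wt 9.0 dpc. It was lowest in wt PI. Its difference from wt 9.5 dpc (-0.73 ± 0.18) missed the threshold without wt PI replicate 2 (-0.78, adjusted p = 0.055).

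Members of the Notch and dorsal lists that were called in both tests lay between the stages. Of 22 tested Notch pathway genes, 7 were higher in wt PI than in wt 9.0 dpc and 2 lower, with 5 between and rising and 1 between and falling. Over all genes tested 15.3% were higher, 13.1% lower and 4.19% between. Library totals gave 10 higher, without wt PI replicate 2 there were 4, and without that library or wt 9.0 dpc replicate 2 the count between was 3. Dll1, the Notch ligand of newly committed neurons, had 20.7 and 20.7 in wt PI, 44.4 and 36.9 in wt 9.5 dpc and 8.86 and 11 CPM in wt 9.0 dpc (log2 fold changes 1.00 ± 0.15 and -0.93 ± 0.13). Hes5, a Notch target of progenitors, had 17.2 and 14.6 in wt PI, 21.0 and 16.2 in wt 9.5 dpc and 6.98 and 6.84 CPM in wt 9.0 dpc. It was higher than in wt 9.0 dpc and overlapped wt 9.5 dpc. Of 19 tested dorsal and roof plate genes, 6 were higher in wt PI than in wt 9.0 dpc, all 6 of them between and rising, and 2 were lower. With 1 library left out 4 to 6 were between, and 4 with wt PI replicate 2 or either wt 9.5 dpc library left out. Zic1, a zinc finger factor of the dorsal neural tube, had 68.9 and 60.0 in wt PI, 169 and 165 in wt 9.5 dpc and 29.8 and 28.6 CPM in wt 9.0 dpc. Rspo3, a secreted enhancer of Wnt signalling, had 5.66 and 7.11 in wt PI, 12.4 and 18.4 in wt 9.5 dpc and 0.537 and 1.73 CPM in wt 9.0 dpc. Again the 3 groups did not overlap.

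Most tested markers of surface ectoderm and neural crest were lower in wt PI than in wt 9.0 dpc. In bulk tissue, fewer cells of a type and less RNA per cell cannot be told apart. Of 13 tested surface ectoderm markers (19 listed), 12 were lower in wt PI than in wt 9.0 dpc and none was higher, with a median log2 fold change of -1.87. At an unadjusted p under 0.05 in edgeR none was higher either, and the DESeq2 Wald test called 9 lower and none higher. Their summed level over the 19 genes was 66.3 and 54.6 CPM in wt PI, 48.9 and 60.7 CPM in wt 9.5 dpc, and 237 and 246 CPM in wt 9.0 dpc, so that wt PI overlapped wt 9.5 dpc and lay far below wt 9.0 dpc. No marker of the list was at 0 in all 6 libraries. Of 11 tested neural crest markers (15 listed), 7 were lower than in wt 9.0 dpc and 1 was higher, and the summed level was 85.1 and 84.4 CPM in wt PI, 129 and 110 CPM in wt 9.5 dpc, and 169 and 173 CPM in wt 9.0 dpc. The part of these cell types in the neural differences was not tested.

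Krt18, a keratin of simple epithelia (chromosome 15, 102028180 to 102032027), had 14.0 and 12.5 in wt PI, 3.55 and 7.21 in wt 9.5 dpc and 72.7 and 81.7 CPM in wt 9.0 dpc. It was between and falling with stage (log2 fold changes -2.60 ± 0.14 and 1.08 ± 0.20). Its partner keratin Krt8 had 18.6 and 11.1 in wt PI, 5.92 and 7.21 in wt 9.5 dpc and 62.3 and 59.1 CPM in wt 9.0 dpc. Its difference from wt 9.5 dpc (0.95 ± 0.22) was lost without wt 9.5 dpc replicate 1 (0.75, adjusted p = 0.063). Epcam, an epithelial adhesion protein, had 5.12 and 5.76 in wt PI, 6.22 and 6.37 in wt 9.5 dpc and 22.0 and 19.5 CPM in wt 9.0 dpc. It fell against wt 9.0 dpc (-1.86 ± 0.16, adjusted p = 3.12e-07) to about the level of wt 9.5 dpc. Sox10, a defining factor of neural crest (chromosome 15, 79154908 to 79165240), had 0.808 and 0.0847 in wt PI, 0.592 and 0.314 in wt 9.5 dpc and 9.13 and 7.20 CPM in wt 9.0 dpc.

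Most tested forebrain and eye regulators were lower than in wt 9.0 dpc. Of 10 tested (24 listed), 7 were lower in wt PI than in wt 9.0 dpc, 1 was higher and the median was -1.19, with 4 below both stages. Without wt PI replicate 2 there were 4 lower, and without that library or wt 9.5 dpc replicate 2 there were 2 outside both. Hesx1, a homeobox repressor of the anterior neural plate and pituitary (chromosome 14, 26994416 to 27002329), had 0.539 and 1.61 in wt PI, 1.18 and 1.04 in wt 9.5 dpc and 21.2 and 19.1 CPM in wt 9.0 dpc. Here wt PI overlapped wt 9.5 dpc. Vgll3, a cofactor of TEAD transcription factors (chromosome 16, 65815257 to 65866368), had 3.50 and 2.79 in wt PI, 5.33 and 6.48 in wt 9.5 dpc and 40.0 and 39.3 CPM in wt 9.0 dpc (-3.72 ± 0.17 against wt 9.0 dpc, adjusted p = 1.14e-10). Its call against wt 9.5 dpc (-1.04 ± 0.24) was lost without wt PI replicate 2 or wt 9.5 dpc replicate 2 (adjusted p = 0.15 and 0.14). Cyp26a1, which degrades retinoic acid, was not in the forebrain list but in that of the retinoic acid pathway. It (chromosome 19, 37697798 to 37701536) had 0 and 0.0847 in wt PI, 0.296 and 0.209 in wt 9.5 dpc and 7.25 and 5.10 CPM in wt 9.0 dpc. With 1 count over both wt PI libraries against 83 in wt 9.0 dpc, Cyp26a1 was 87.7-fold lower in wt PI (95% counting interval 15.3 to 3504). Lhx9, a LIM homeobox factor, was the forebrain-list member that was higher, with 4.58 and 5.08 in wt PI, 30.5 and 23.7 in wt 9.5 dpc and 1.34 and 1.00 CPM in wt 9.0 dpc.

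Nr2f1, an orphan nuclear receptor of the neural tube (chromosome 13, 78188973 to 78199757), had 65.2 and 64.4 in wt PI, 267 and 196 in wt 9.5 dpc and 122 and 115 CPM in wt 9.0 dpc. It was lower in wt PI than at either stage (-0.86 ± 0.11 against wt 9.0 dpc and -1.80 ± 0.11 against wt 9.5 dpc), while the 2 stages themselves were ordered with the later one higher. Its relative Nr2f2 had 63.0 and 57.5 in wt PI, 109 and 104 in wt 9.5 dpc and 90.7 and 96.6 CPM in wt 9.0 dpc. Both genes thus lay outside the range of the stages on the same side.

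**Figure D4:**
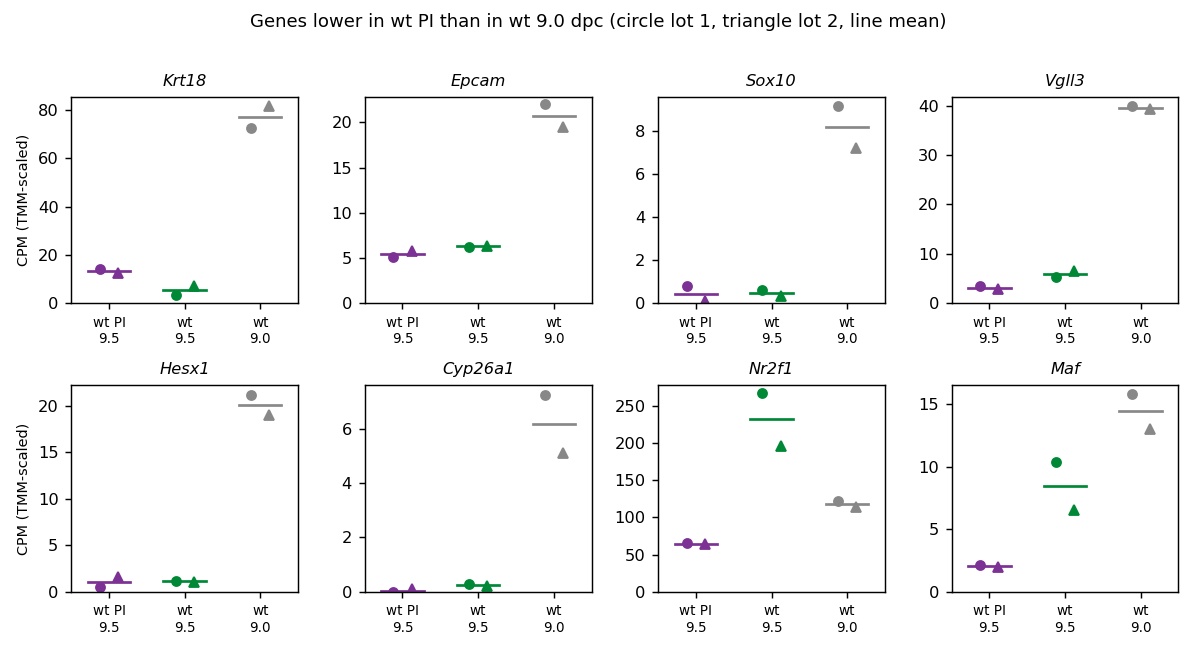
CPM (TMM-scaled, linear axis from 0) of 8 genes lower in wt PI 9.5 dpc (left) than in wt 9.0 dpc (right), with wt 9.5 dpc in the middle, circles for lot 1, triangles for lot 2 and a line at the mean. Sox10, Hesx1 and Cyp26a1 are near 0 in wt PI and wt 9.5 dpc, Krt18 lies between the stages, and Nr2f1 and Maf are lower in wt PI than in both.

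Part of the isthmic and FGF response list lay above both stages. Of 20 tested genes (23 listed), 9 were higher in wt PI than in wt 9.0 dpc and 3 lower, with 6 above both, 1 below both, 2 between and rising and 1 between and falling. Fgf15, an FGF ligand of the dorsal midbrain and isthmus (chromosome 7, 144896531 to 144900953), had 104 and 114 in wt PI, 41.8 and 47.1 in wt 9.5 dpc and 25.0 and 31.2 CPM in wt 9.0 dpc. Both wt PI libraries exceeded all other wt libraries by more than the spread within any group (log2 fold change 1.94 ± 0.10, adjusted p = 5.18e-10, over wt 9.0 dpc and 1.29 ± 0.10, adjusted p = 2.32e-08, over wt 9.5 dpc). Pax5, a paired box factor of the isthmus, had 26.1 and 26.2 in wt PI, 9.48 and 9.30 in wt 9.5 dpc and 12.6 and 16.1 CPM in wt 9.0 dpc. Spry1, an FGF-induced antagonist of FGF signalling, had 33.9 and 35.5 in wt PI, 21.6 and 22.2 in wt 9.5 dpc and 15.6 and 15.9 CPM in wt 9.0 dpc. En2 and Otx2 were instead between and rising, though En2 lost its call against wt 9.5 dpc (-0.39 ± 0.11) without wt PI replicate 2 (-0.38, adjusted p = 0.11) or wt 9.5 dpc replicate 1 (-0.35, adjusted p = 0.064), and in the DESeq2 Wald test (-0.43, adjusted p = 0.20). Otx2, the homeobox factor of forebrain and midbrain, had 153 and 150.1 in wt PI, 213 and 207 in wt 9.5 dpc and 87.2 and 110.1 CPM in wt 9.0 dpc. With the DESeq2 Wald test 4 genes of this list were higher than in wt 9.0 dpc and 1 lay outside both. Without wt PI replicate 2 or wt 9.0 dpc replicate 1 there was 1 lower, and without wt PI replicate 2 there was 1 between.

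Genes well above both stages came from several systems. Trh, thyrotropin-releasing hormone (chromosome 6, 92242061 to 92244650), had 78.6 and 88.5 in wt PI, 14.8 and 28.6 in wt 9.5 dpc and 14.0 and 19.2 CPM in wt 9.0 dpc (log2 fold changes 2.32 ± 0.15 and 1.87 ± 0.14). Ciart, a repressor of the circadian clock, had 15.1 and 19 in wt PI, 2.96 and 2.61 in wt 9.5 dpc and 4.83 and 5.92 CPM in wt 9.0 dpc. Stc1, a secreted glycoprotein linked to calcium balance, had 14.3 and 16.7 in wt PI, 2.37 and 2.82 in wt 9.5 dpc and 5.91 and 5.01 CPM in wt 9.0 dpc. The rule that named these 3 genes required that wt PI overlap neither stage, so the lack of overlap is no added support. Spink1, a trypsin inhibitor listed among endoderm markers, had 21.0 and 25.3 in wt PI, 0.592 and 0.104 in wt 9.5 dpc and 12.1 and 8.93 CPM in wt 9.0 dpc. The 377 counts of wt PI against 3 in wt 9.5 dpc made it 105-fold higher (95% counting interval 35.6 to 510.5). Nkx2-9, a homeobox factor of the ventral neural tube, had 13.7 and 15.1 in wt PI, 0 and 0.314 in wt 9.5 dpc and 6.98 and 6.75 CPM in wt 9.0 dpc. Its call against wt 9.0 dpc missed the threshold without wt 9.0 dpc replicate 2 (0.94, adjusted p = 0.055). Hbb-bh0, which GENCODE annotates as an unprocessed globin pseudogene, had 9.97 and 11.2 in wt PI, 0.296 and 0.209 in wt 9.5 dpc and 0.805 and 0.456 CPM in wt 9.0 dpc. This value is uncertain, because it shares sequence with globin genes. Moap1, a modulator of apoptosis, and Aldh1a1, a retinaldehyde dehydrogenase, were also above both. Their calls against wt 9.0 dpc were lost without wt 9.0 dpc replicate 1 (Moap1, adjusted p = 0.053), or without wt PI replicate 2 or wt 9.0 dpc replicate 2 (Aldh1a1, adjusted p = 0.063 and 0.087), and Moap1 lost that against wt 9.5 dpc without wt 9.5 dpc replicate 1 (adjusted p = 0.059).

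Genes of the integrated stress response, which turns on amino acid supply through the factor Atf4, were above both stages together. Of 13 tested (20 listed), 8 were higher than in wt 9.0 dpc, none was lower, all 8 were above both stages, and the median log2 fold change against wt 9.0 dpc was 0.43. The count above both was 5 without wt 9.0 dpc replicate 1, and 3 with the DESeq2 Wald test. No member was lower at an unadjusted p under 0.05 in edgeR, or in the DESeq2 test. Phgdh, the first enzyme of serine synthesis (chromosome 3, 98313170 to 98339990), had 140.0 and 138 in wt PI, 77.9 and 94.8 in wt 9.5 dpc and 72.7 and 79.8 CPM in wt 9.0 dpc (0.86 ± 0.09 over wt 9.0 dpc, adjusted p = 3.70e-06). Psat1, the next enzyme of that pathway, had 245 and 240.5 in wt PI, 102 and 116 in wt 9.5 dpc and 157 and 176 CPM in wt 9.0 dpc. Mthfd2, of mitochondrial folate metabolism, had 88.3 and 85.0 in wt PI, 37.0 and 43.3 in wt 9.5 dpc and 57.4 and 62.6 CPM in wt 9.0 dpc. Slc3a2, a subunit of amino acid transporters, had 57.6 and 66.6 in wt PI, 32.0 and 32.3 in wt 9.5 dpc and 40.0 and 40.3 CPM in wt 9.0 dpc. In all 4 the wt PI libraries lay above the other groups. Atf4 itself had 94.3 and 92.8 in wt PI, 53.9 and 48.5 in wt 9.5 dpc and 67.1 and 77.9 CPM in wt 9.0 dpc. Its difference from wt 9.0 dpc (0.35 ± 0.10, adjusted p = 0.0119) was lost without wt PI replicate 1, wt PI replicate 2 or wt 9.0 dpc replicate 1 (adjusted p = 0.072, 0.051 and 0.29).

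**Figure D5:**
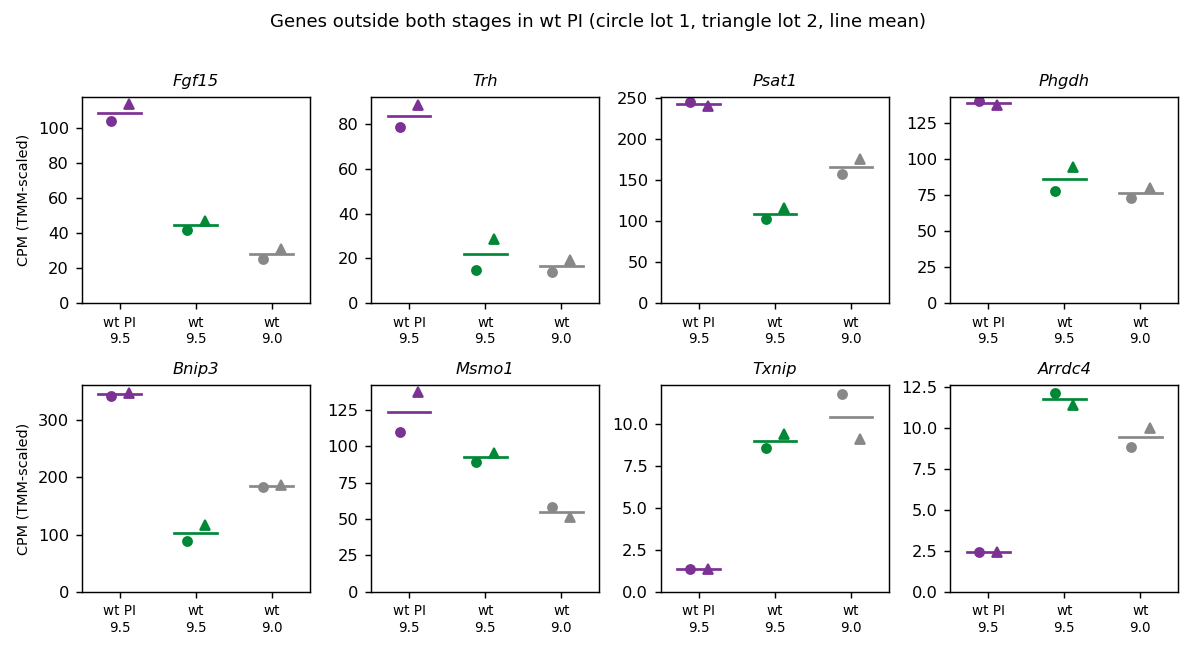
CPM (TMM-scaled, linear axis from 0) of 8 genes outside both stages, with wt PI 9.5 dpc left, wt 9.5 dpc in the middle and wt 9.0 dpc right, circles for lot 1, triangles for lot 2 and a line at the mean. In Fgf15, Trh, Psat1, Phgdh, Bnip3 and Msmo1 both wt PI libraries lie above the other 4 libraries, and in Txnip and Arrdc4 both lie below them.

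Part of the cholesterol synthesis list was higher than in wt 9.0 dpc. Of 24 tested, 14 were higher, none was lower, 10 were not called and the median log2 fold change was 0.41, with 5 above both stages, 4 between and rising and 15 in no class. With library totals 19 were higher, without wt 9.0 dpc replicate 2 there were 9, and with the DESeq2 Wald test 6 higher and none lower. At an unadjusted p under 0.05 in edgeR 18 were higher and 1 was lower. The count outside both was 2 without wt PI replicate 1, wt PI replicate 2 or wt 9.5 dpc replicate 1, 3 without wt 9.5 dpc replicate 2 or wt 9.0 dpc replicate 2, and the count between was 2 without wt PI replicate 2 or wt 9.0 dpc replicate 2. Idi1, an isomerase of the isoprenoid step (chromosome 13, 8885501 to 8892451), had 196 and 218 in wt PI, 134 and 163 in wt 9.5 dpc and 104 and 104 CPM in wt 9.0 dpc. It was above both stages (1.00 ± 0.09 and 0.47 ± 0.09 on the log2 scale). Msmo1, a sterol demethylase (chromosome 8, 64718139 to 64733792), had 109.6 and 138 in wt PI, 89.5 and 95.3 in wt 9.5 dpc and 58.0 and 51.4 CPM in wt 9.0 dpc. The call of Msmo1 against wt 9.5 dpc (0.43 ± 0.11) was lost without wt PI replicate 2, wt 9.5 dpc replicate 1 or wt 9.5 dpc replicate 2 (adjusted p = 0.24, 0.086 and 0.086). Hmgcs1, which feeds the pathway with HMG-CoA (chromosome 13, 119690379 to 119708260), was between, with 315 and 337 in wt PI, 547 and 612 in wt 9.5 dpc and 224 and 215 CPM in wt 9.0 dpc. The upstream sequences of these 3 genes are shown because sterol synthesis promoters are known for CCAAT boxes next to sterol response elements. They are the 250 bases before the RefSeq start on build GRCm38.p6, at chr13:8885356-8885605 (plus strand) for Idi1, chr8:64733579-64733828 (minus strand) for Msmo1 and chr13:119690101-119690350 (plus strand) for Hmgcs1, with CCAAT on either strand in capitals (ATTGG where it is on the other strand).
Idi1: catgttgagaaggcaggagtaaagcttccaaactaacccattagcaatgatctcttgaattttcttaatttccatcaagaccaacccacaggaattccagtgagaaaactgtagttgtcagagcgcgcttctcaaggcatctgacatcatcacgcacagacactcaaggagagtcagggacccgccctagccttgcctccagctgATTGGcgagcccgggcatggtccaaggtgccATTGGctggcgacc
Msmo1: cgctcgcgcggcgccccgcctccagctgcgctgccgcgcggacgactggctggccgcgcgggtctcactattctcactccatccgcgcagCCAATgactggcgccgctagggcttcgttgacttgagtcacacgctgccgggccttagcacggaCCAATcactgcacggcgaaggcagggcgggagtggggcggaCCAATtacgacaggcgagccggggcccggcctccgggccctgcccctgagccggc
Hmgcs1: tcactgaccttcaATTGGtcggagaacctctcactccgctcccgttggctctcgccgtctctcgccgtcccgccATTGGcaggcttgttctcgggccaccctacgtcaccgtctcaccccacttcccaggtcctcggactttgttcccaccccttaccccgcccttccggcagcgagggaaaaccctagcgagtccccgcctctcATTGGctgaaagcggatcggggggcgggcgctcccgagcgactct

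The 3 windows hold 2, 3 and 3 such boxes in the order printed. Of the 24 listed cholesterol genes, 16 had an entry in the RefSeq promoter table. A gene was counted when any of its windows held the motif. CCAAT was found for 16 of these 16 genes, against 37.5% of 27025 genes. The sterol regulatory element core TCACNCCAC was found in 1 of 16, against 1.22% of genes. These are matches of letters on either strand, and no binding was measured.

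Against wt 9.0 dpc, hypoxia targets and glycolytic enzymes did not move together. Of 28 tested genes (30 listed), 7 were higher in wt PI than in wt 9.0 dpc and 7 were lower, with 6 above both, 1 below both and 5 between and falling. With library totals 12 were higher and 4 lower, without wt PI replicate 2 or wt 9.0 dpc replicate 2 there were 3 higher and 4 lower, and without wt 9.0 dpc replicate 1 there were 4 higher and 3 lower. Against wt 9.5 dpc, 21 of the 28 were higher in wt PI and 1 was lower, with a median log2 fold change of 0.85. Over all genes tested 21% were higher than in wt 9.5 dpc and 17.9% lower. With 1 library left out 17 to 20 were higher in that comparison, and the median against wt 9.0 dpc was 0.06. Without PI, 19 of the 28 were lower in wt 9.5 dpc than in wt 9.0 dpc and 1 was higher, with a median of -0.85. Over all genes tested 22.8% were lower and 18.8% higher in that comparison of stages. Bnip3, a mitophagy receptor and hypoxia target (chromosome 7, 138890836 to 138909519), had 343 and 348 in wt PI, 89.2 and 116 in wt 9.5 dpc and 183 and 187 CPM in wt 9.0 dpc. It was above both stages (0.90 ± 0.09 and 1.74 ± 0.10). Slc2a3, a neuronal glucose transporter, had 94.0 and 69.6 in wt PI, 30.2 and 42.9 in wt 9.5 dpc and 239 and 244 CPM in wt 9.0 dpc. It lay between the stages. Its call against wt 9.0 dpc was lost without wt 9.0 dpc replicate 1 (-1.63, adjusted p = 0.11) or replicate 2 (-1.56, adjusted p = 0.16), and so was that against wt 9.5 dpc (adjusted p = 0.10 and 0.13). Ldha, lactate dehydrogenase, had 2156 and 2292 in wt PI, 804 and 1059 in wt 9.5 dpc and 2157 and 2446 CPM in wt 9.0 dpc. Ldha in wt PI was at the level of wt 9.0 dpc (-0.05 ± 0.09, adjusted p = 0.761) and above wt 9.5 dpc (1.26 ± 0.10, adjusted p = 3.40e-08). The upstream window of Bnip3, at chr7:138909507-138909756 on the minus strand of GRCm38.p6, is shown for its hypoxia response core ACGTG, in capitals and present on both strands as CACGTG.
Bnip3: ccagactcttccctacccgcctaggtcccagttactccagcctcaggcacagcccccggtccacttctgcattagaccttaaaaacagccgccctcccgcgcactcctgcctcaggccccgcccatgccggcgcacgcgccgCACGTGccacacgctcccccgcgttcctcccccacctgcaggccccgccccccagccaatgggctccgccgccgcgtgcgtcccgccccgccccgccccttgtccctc

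Counted by gene in the same way, the letters ACGTG were found for 17 of 28 listed hypoxia and glycolysis genes with a window, against 18.5% of all genes. In the stress response list, the C/EBP-ATF element TGATGNAAN was found for 6 of 17 genes with a window, against 3.89% of all genes. The E-box CAGCTG was found for 3 of 17 genes of the proneural list with a window, against 14.7%.

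Genes well below both stages included a pair of related alpha-arrestins. Txnip, the thioredoxin-interacting protein that limits glucose uptake (chromosome 3, 96557957 to 96561883), had 1.35 and 1.35 in wt PI, 8.59 and 9.40 in wt 9.5 dpc and 11.8 and 9.12 CPM in wt 9.0 dpc (log2 fold changes -2.85 ± 0.26 and -2.74 ± 0.27, adjusted p = 5.78e-07 and 5.66e-07). Arrdc4, of the same protein family and also induced by glucose (chromosome 7, 68736995 to 68749241), had 2.42 and 2.46 in wt PI, 12.1 and 11.4 in wt 9.5 dpc and 8.86 and 10.03 CPM in wt 9.0 dpc. That wt PI overlapped neither stage was again required by the rule that named both genes. Maf, a leucine zipper transcription factor (chromosome 8, 115682942 to 115707794), had 2.15 and 1.95 in wt PI, 10.4 and 6.58 in wt 9.5 dpc and 15.8 and 13.0 CPM in wt 9.0 dpc. Lhx2, a LIM homeobox factor of eye and forebrain, had 1.08 and 0.254 in wt PI, 18.4 and 7.84 in wt 9.5 dpc and 1.61 and 1.37 CPM in wt 9.0 dpc. The call of Lhx2 against wt 9.0 dpc (-1.60 ± 0.54) was lost without 1 library of wt PI (replicate 2, adjusted p = 0.31), without either of wt 9.5 dpc (0.086 and 0.057), without wt 9.0 dpc replicate 2 (0.47) and with library totals. Slc51a, a subunit of a bile acid and steroid transporter, was below both by the main test, and its call against wt 9.0 dpc was lost without wt PI replicate 2 (adjusted p = 0.051) or wt 9.0 dpc replicate 2 (adjusted p = 0.18).

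Ribosomal protein genes, a list added after the data were seen, were lower as a group than in wt 9.0 dpc. Of 83 tested, 59 were lower in wt PI than in wt 9.0 dpc, none was higher, the median log2 fold change was -0.52, and 34 lay below both stages. Against wt 9.5 dpc 18 were higher in wt PI and 34 lower, with a median of -0.15. Without PI, 52 were lower in wt 9.5 dpc than in wt 9.0 dpc and none was higher. With library totals 49 were lower and 1 was higher, and with the DESeq2 Wald test 56 were lower and none was higher. At an unadjusted p under 0.05 in edgeR 63 were lower and none was higher. The 89 genes of the list took 12.9% and 12.7% of the counts in wt PI, 13.8% and 14.7% in wt 9.5 dpc, and 16.1% and 16.1% in wt 9.0 dpc. Many of these genes have near-identical processed copies in the genome, and how reads of such copies were counted is not given in the sources.

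Genes of protein folding and degradation were called in both directions. Over all genes tested, 15.3% were higher and 13.1% lower than in wt 9.0 dpc. Against wt 9.5 dpc those shares were 21% and 17.9%. Of 15 tested endoplasmic reticulum chaperone genes, 6 were lower than in wt 9.0 dpc and 2 higher, with 5 below both and 2 above both, and without wt PI replicate 2 or wt 9.0 dpc replicate 2 there were 3 lower. The DESeq2 Wald test called none of them, with 7 at an unadjusted p under 0.05, and without wt PI replicate 1 or either wt 9.0 dpc library edgeR called none higher, with 3 higher at an unadjusted p under 0.05 in the fit of all 6 libraries. Xbp1, a transcription factor of the unfolded protein response, had 25.3 and 31.7 in wt PI, 55.1 and 54.1 in wt 9.5 dpc and 41.1 and 42.3 CPM in wt 9.0 dpc (-0.51 ± 0.11 and -0.89 ± 0.11). Dnajc3, a cochaperone of that compartment, had 38.0 and 40.9 in wt PI, 67.2 and 71.1 in wt 9.5 dpc and 53.4 and 56.1 CPM in wt 9.0 dpc. Hspa5, its main chaperone, had 680.0 and 717 in wt PI, 670.0 and 780.1 in wt 9.5 dpc and 659.6 and 702 CPM in wt 9.0 dpc. It was not called in either test. Of 37 tested proteasome genes, 10 were higher and 3 lower than in wt 9.0 dpc, with 10 above both and a median of 0.12. That count of higher genes was 3 without wt PI replicate 1, 3 without wt 9.0 dpc replicate 1, 4 without wt 9.0 dpc replicate 2, 3 without the lot block and 21 with library totals. Against wt 9.5 dpc, 32 of the 37 were higher in wt PI and none was lower, with a median of 0.50, and the count was 29 higher and 1 lower with DESeq2 size factors, 34 higher with library totals and 24 to 32 higher with 1 library left out. Without PI, 31 of the 37 were lower in wt 9.5 dpc than in wt 9.0 dpc and none was higher, with a median of -0.45. Over all genes tested 22.8% were lower and 18.8% higher in that comparison of stages. Psmc1, an ATPase of the proteasome cap, had 298 and 327 in wt PI, 146 and 157 in wt 9.5 dpc and 206 and 239.9 CPM in wt 9.0 dpc. Of 20 tested NRF2 targets, 7 were higher and 3 lower, without wt PI replicate 2 there were 2 higher and 1 lower, without wt 9.0 dpc replicate 1 there were 4 higher and 1 lower, and without wt 9.0 dpc replicate 2 there were 1 higher and 1 lower. The DESeq2 Wald test called 0 NRF2 targets higher and 2 lower, with 5 at an unadjusted p under 0.05. Against wt 9.5 dpc, 13 of the 20 were higher in wt PI and 2 lower, with a median of 0.55, and the DESeq2 Wald test called 8 higher and 1 lower. Without PI, 10 of the 20 were lower in wt 9.5 dpc than in wt 9.0 dpc and 1 was higher. Of 18 tested heat shock chaperones, 3 were higher and 6 lower, without wt PI replicate 2 there were 1 higher and 3 lower, and without wt 9.0 dpc replicate 1 or 2 the lower ones were 3 and 2.

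Skp1a and the core PRC2 genes were not called between wt PI and wt 9.0 dpc. Skp1a (chromosome 11, 52231995 to 52246858) had 922 and 993 in wt PI, 751 and 878 in wt 9.5 dpc and 938 and 1028 CPM in wt 9.0 dpc. The ranges of wt PI and wt 9.0 dpc overlapped (-0.04 ± 0.09, adjusted p = 0.784). It was higher than in wt 9.5 dpc (0.24 ± 0.09, adjusted p = 0.0374), a call lost in 5 of the 6 refits without 1 library (adjusted p of 0.085 to 0.22). Ezh2, the methyltransferase of PRC2 (chromosome 6, 47530139 to 47595341), had 255 and 236 in wt PI, 374 and 345 in wt 9.5 dpc and 270.1 and 273 CPM in wt 9.0 dpc. It was not called against wt 9.0 dpc (-0.15 ± 0.08, adjusted p = 0.2) and was lower than in wt 9.5 dpc (-0.55 ± 0.08, adjusted p = 5.76e-05). Suz12, its scaffold subunit, behaved likewise, with 95.6 and 96.9 in wt PI, 156 and 132 in wt 9.5 dpc and 87.2 and 93.3 CPM in wt 9.0 dpc (adjusted p = 0.549 against wt 9.0 dpc and 0.00015 against wt 9.5 dpc). Eed, the subunit that reads the histone mark, had 110.4 and 122 in wt PI, 103 and 111 in wt 9.5 dpc and 118 and 127 CPM in wt 9.0 dpc. It was called in neither test (adjusted p = 0.565 and 0.286).

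Of 10 tested PRC2 subunit genes, 2 were higher than in wt 9.0 dpc (Aebp2 and Jarid2) and 1 lower (Epop), against 15.3% higher and 13.1% lower over all genes tested, so the count shows nothing particular to PRC2. Jarid2 lost its call without either wt 9.0 dpc library (adjusted p = 0.086 and 0.053), and Epop without wt PI replicate 2 or either wt 9.0 dpc library (adjusted p = 0.265, 0.15 and 0.11). Aebp2, an accessory subunit, was between and rising, with 97.2 and 90.9 in wt PI, 142 and 123 in wt 9.5 dpc and 65.2 and 63.4 CPM in wt 9.0 dpc. Of 19 tested PRC1 genes, 1 was higher and 4 lower, which became 6 higher and 0 lower with library totals, and the DESeq2 Wald test called 0, with 2 at an unadjusted p under 0.05, so no direction is given for PRC1. In edgeR with TMM 2 were higher and 5 lower at an unadjusted p under 0.05. Of 18 tested SCF genes, 2 were higher and 2 lower, and the higher ones were 0 without wt PI replicate 1, wt 9.5 dpc replicate 1 or either wt 9.0 dpc library, with 3 higher at an unadjusted p under 0.05 and none in the DESeq2 Wald test. Meis2, a homeobox gene known as a Polycomb target in the midbrain (chromosome 2, 115863064 to 116065839), had 72.4 and 74.2 in wt PI, 159 and 142 in wt 9.5 dpc and 59.1 and 56.8 CPM in wt 9.0 dpc. It lay between the stages and nearer to wt 9.0 dpc. Its difference from wt 9.5 dpc (-1.02 ± 0.09, adjusted p = 1.52e-07) held in each refit without 1 library. That from wt 9.0 dpc (0.35 ± 0.09, adjusted p = 0.0102) did not, without wt PI replicate 2, wt 9.0 dpc replicate 1 or wt 9.0 dpc replicate 2 (adjusted p = 0.23, 0.10 and 0.11).

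Blood genes were read as markers of another tissue, and the embryonic globins Hbb-y and Hbb-bh1 had counts in all 6 libraries. Of 17 tested erythroid markers (20 listed), 6 were higher in wt PI than in wt 9.0 dpc and 3 were lower, with 4 between and rising. Without wt PI replicate 2 or wt 9.0 dpc replicate 2 there were 2 higher. Their summed level was 7402 and 9416 CPM in wt PI, 14412 and 18345 CPM in wt 9.5 dpc, and 7609 and 7393 CPM in wt 9.0 dpc. The embryonic globin Hbb-y had 2369.8 and 3100.2 in wt PI, 5236 and 6631 in wt 9.5 dpc and 1274 and 1182 CPM in wt 9.0 dpc. It lay between the stages (1.14 ± 0.12 and -1.12 ± 0.12). The other embryonic globin, Hbb-bh1, had 2068 and 2567 in wt PI, 4832 and 6290.3 in wt 9.5 dpc and 3619 and 3478 CPM in wt 9.0 dpc. It was lowest in wt PI. Its call against wt 9.0 dpc (-0.63 ± 0.11) was lost without wt 9.0 dpc replicate 1 (adjusted p = 0.11), and reads of globin copies may be shared. Pf4, a platelet chemokine (chromosome 5, 90772435 to 90773383), had 17.0 and 14.8 in wt PI, 63.1 and 74.9 in wt 9.5 dpc and 0.268 and 0.0912 CPM in wt 9.0 dpc. Against 2 counts in wt 9.0 dpc, the 238 counts of wt PI made it 113-fold higher, with a 95% counting interval of 30.8 to 936. Of 8 tested platelet and macrophage markers (20 listed), 2 were higher than in wt 9.0 dpc, none was lower and 6 were not called. The summed level of the 20 markers was 27.2 and 26.8 CPM in wt PI, 107 and 113 CPM in wt 9.5 dpc, and 6.17 and 9.57 CPM in wt 9.0 dpc. Pf4 alone made up most of the wt PI sum. Among macrophage genes, Csf1r had 0 and 0.423 in wt PI and 0 and 1.28 CPM in wt 9.0 dpc. Tyrobp had 0.269 and 0.423 in wt PI and 0 and 0.182 CPM in wt 9.0 dpc. The share of blood in the other differences was not tested.

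Head mesenchyme markers were called in both directions. Of 18 tested (24 listed), 5 were higher in wt PI than in wt 9.0 dpc and 7 were lower, with 4 between and rising. Without wt PI replicate 2 or wt 9.0 dpc replicate 2 there were 3 higher. Col3a1, a fibrillar collagen chain (chromosome 1, 45311538 to 45349706), had 187 and 164 in wt PI, 291 and 248 in wt 9.5 dpc and 70.3 and 66.6 CPM in wt 9.0 dpc. Col1a2, another fibrillar collagen chain, had 32.0 and 39.8 in wt PI, 67.8 and 66.3 in wt 9.5 dpc and 24.4 and 26.4 CPM in wt 9.0 dpc (0.52 ± 0.12, adjusted p = 0.00243 in edgeR against wt 9.0 dpc). Its call was lost without wt PI replicate 2 (0.34, adjusted p = 0.23) and without wt 9.0 dpc replicate 2 (0.51, adjusted p = 0.056). The summed level of the list was 438 and 419 CPM in wt PI, 643 and 571 CPM in wt 9.5 dpc, and 370.2 and 353 CPM in wt 9.0 dpc. Col3a1 alone made up a large part of the wt PI sum, so the sum does not stand for the list. The median log2 fold change of the list against wt 9.0 dpc was -0.36. Twist1, Foxc1, Pdgfra and Prrx1, other mesenchyme genes, were lower in both wt PI libraries than in both wt 9.0 dpc libraries. Twist1 had 25.59 and 27.69 in wt PI and 52.62 and 44.12 CPM in wt 9.0 dpc. Foxc1 had 13.47 and 14.31 against 33.02 and 24.25 CPM. Pdgfra had 8.618 and 11.01 against 17.18 and 17.23 CPM, and Prrx1 21.01 and 19.73 against 24.7 and 22.06 CPM. Calls for these genes are not given here.

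Among genes that mark early developmental time, the Lin28 and Hmga list had 2 higher and 5 lower members of 14 tested against wt 9.0 dpc. Dnmt3b, a de novo DNA methyltransferase that falls as development proceeds, had 29.9 and 30.4 in wt PI, 22.2 and 20.2 in wt 9.5 dpc and 63.1 and 63.9 CPM in wt 9.0 dpc. It lay between the stages on the falling side. Nr6a1, an orphan nuclear receptor of the early embryo, had 85.6 and 89.6 in wt PI, 41.8 and 57.0 in wt 9.5 dpc and 142 and 155 CPM in wt 9.0 dpc, in the same order. The call of Dnmt3b against wt 9.5 dpc was lost without wt 9.5 dpc replicate 2 (0.43, adjusted p = 0.068). Hmga1, a chromatin protein of proliferating cells, had 134 and 159.5 in wt PI, 63.4 and 65.3 in wt 9.5 dpc and 96.1 and 94.6 CPM in wt 9.0 dpc. It was highest in wt PI (0.63 ± 0.09 and 1.20 ± 0.10). Of 31 tested cell cycle and replication genes, 10 were higher and 3 lower, against 15.3% and 13.1% over all genes tested. Library totals gave 15 higher and 0 lower, the DESeq2 Wald test 4 higher and 0 lower, and edgeR at an unadjusted p under 0.05 gave 11 higher and 4 lower. Without wt PI replicate 2 there were 6 higher, and without wt 9.0 dpc replicate 2 there were 4.

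Genes of the retinoic acid pathway fell into several classes. Of 10 tested (17 listed), 4 were higher than in wt 9.0 dpc and 3 lower, with 3 above both stages, 1 between and rising and 1 between and falling. Without wt 9.0 dpc replicate 2 there were 2 higher, and without wt 9.5 dpc replicate 1 or wt 9.0 dpc replicate 2 there was 1 outside both. Crabp1, which binds retinoic acid in the cytoplasm, had 461 and 504 in wt PI, 579.7 and 691 in wt 9.5 dpc and 268 and 279.7 CPM in wt 9.0 dpc, between and rising. Of 17 tested Wnt response genes, 5 were higher than in wt 9.0 dpc and 2 lower, with 3 above both, and without wt 9.0 dpc replicate 1 or 2 there were 3 higher. The shares over all genes tested were 15.3% higher, 13.1% lower and 6.31% above both.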

How the data were processed

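RNA-seq libraries were made from poly(A) RNA, per the labels' protocols. The authors deposited 1 table of raw read counts per gene for 36255 genes, with no normalization. Build GRCm38 (mm10) and Trim Galore 0.6.7 are named in the submitters' processing notes. The sources used here do not give the aligner, the counter or the strand setting. Of 12 labelled libraries, 11 had counts that were used, and 1 was not analysed here.

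The 6 wt libraries were fitted in edgeR 4.0.16 (R 4.3.3) with TMM scaling, filterByExpr by group, group and lot as terms, and the robust quasi-likelihood F test, which left 13126 genes and 2 residual degrees of freedom. P-values were Benjamini-Hochberg adjusted over all genes tested, with a threshold of 0.05, and errors of log2 fold changes are the standard errors the F statistic gives. The fit was also run on simulated counts, built with a lot effect shared by all groups and with the spread of the main fit. Such counts cannot test whether lots pair libraries or whether that spread is right, and no support for the calls is drawn from them. Ratios of genes with 1 to 3 counts in a group have exact 95% counting intervals, which cover counting error only. The numbers of the lots come from the labels, which do not say that they pair libraries. Same-numbered libraries of different groups deviated together, with correlations of their deviations across genes of 0.456 (wt PI and wt 9.5 dpc), 0.459 (wt PI and wt 9.0 dpc) and 0.501 (wt 9.5 dpc and wt 9.0 dpc).

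Genes were named by a rule: Skp1a, Ezh2, Eed, Suz12 and Meis2, the 8 called genes with the highest and the 8 with the lowest log2 fold change against wt 9.0 dpc, the 6 genes of each class with the largest smaller change, and in each list up to 5 called and 3 abundant members. Outside the lists these genes had at least 5 CPM in the highest group, and groups that did not overlap. Some genes the rule names are not reported here. The groups, lists and rules were chosen with earlier results of these data known. The ribosomal protein list and the motifs were chosen after the data were seen. Gene positions are from GENCODE M21, where 576 of 578 names matched once, and promoter windows are from RefSeq on GRCm38.p6. DESeq2 1.42.0, other scalings, other filters, a fit without the lot block and fits without 1 library were tried as alternatives.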

Additional observations from a re-analysis of the deposited data

How the results depend on the processing

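With no replicate block 2046 genes were called against wt 9.0 dpc, 693 lay outside both stages and 297 between, and 2045 of the 2046 were also called with the block. The DESeq2 Wald test gave 1089, 392 and 128. The fit of all 11 libraries by group, without the block, gave 2, 0 and 0 in edgeR, with 1298 genes at an unadjusted p under 0.05, and its 2 genes were Vgll3 (-3.70, adjusted p = 0.00673) and Wfdc1 (3.09, adjusted p = 0.0159). Leaving out 1 library at a time gave 1877 to 3952 calls, 761 to 1158 genes outside and 175 to 459 between. Over genes of at least 10 CPM the mean distance was 0.484 for wt PI to wt 9.0 dpc and 0.643 for wt 9.5 dpc to wt 9.0 dpc, against 0.669 and 0.830 over all genes tested, where the set of genes differs by construction. The cause of the other shifts was not tested. DESeq2 size factors, library totals, either other filter, the fit without robust estimates and the fit of 4 libraries kept the count of calls within 1.5 times that of the main fit. No direction of a named, called gene turned round under any alternative. Of 202 named genes called against wt 9.0 dpc, 163 stayed called without the block, 188 with library totals, 118 of 188 with a value in the DESeq2 Wald test, and 140 of 198 without wt 9.0 dpc replicate 2. In the fit of all 11 libraries by group only 1 of the 202 stayed called. With 3632898 counts in the shallower wt PI library, genes at a few counts have wide intervals, and 2 libraries a group limit every p-value.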

Other observations

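The isthmic gene En1, a homeobox factor of midbrain and anterior hindbrain, had 49.3 and 52.2 CPM in wt PI, 19 and 22.5 CPM in wt 9.5 dpc and 40.0 and 39.7 CPM in wt 9.0 dpc, with the libraries of each group close together. En2, its relative, was higher in wt 9.5 dpc than in wt 9.0 dpc, with 34.2 and 32.0 CPM in wt PI, 46.8 and 40.7 CPM in wt 9.5 dpc and 15.8 and 17.2 CPM in wt 9.0 dpc.

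Some markers split by lot or by single library. Pecam1, an endothelial adhesion protein, had 315 and 87.6 CPM in wt PI, 309 and 70.9 CPM in wt 9.5 dpc and 325 and 80.4 CPM in wt 9.0 dpc, high in lot 1 and low in lot 2 in every group, while Cdh5, another endothelial marker, had 10.5 and 9.91 CPM in wt PI, 16.0 and 12.5 CPM in wt 9.5 dpc and 10.7 and 12.1 CPM in wt 9.0 dpc with no such split. Prl8a2, a prolactin-family gene of the decidua, had 1.62 and 0.593 CPM in wt PI, 143 and 24.7 CPM in wt 9.5 dpc and 1.61 and 1.82 CPM in wt 9.0 dpc. The microglia and macrophage receptor Csf1r had 0 and 0.423 CPM in wt PI, 9.77 and 5.33 CPM in wt 9.5 dpc and 0 and 1.28 CPM in wt 9.0 dpc.

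Further lists gave calls in both directions against wt 9.0 dpc. Over all genes tested 15.3% were higher and 13.1% lower. Endothelial markers had 2 higher and 7 lower of 19 tested, and without wt 9.0 dpc replicate 2 there were 1 higher and 2 lower. Imprinted growth genes had 6 higher and 3 lower of 15. Genes of the p53 response had 4 higher and 1 lower of 17, and without wt PI replicate 2 or wt 9.0 dpc replicate 2 there was 1 higher. Immediate early genes had 1 higher and 3 lower of 11. Mitochondrial genome genes had 3 higher and 1 lower of 13.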
